A study of Homo sapiens with 20 samples.

Results

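The genes examined here encode 7 proteins that detect DNA in the wrong place or relay that signal, namely PYHIN1, IFI16, AIM2, MB21D1 (cGAS), TMEM173 (STING), TREX1 and TBK1. They were taken by symbol from the 20314 genes of the deposited count table, all 7 were found, and 6 had enough counts for the test across genes. RNA was sequenced from U2-OS, a human osteosarcoma cell line, in 4 groups of 5 libraries, prepared per the methods in quintuplicate. Cells were left untreated, were irradiated with 20 Gy and taken 1.5 h (90 minutes in the labels) or 7 days post-IR, or carried an shRNA knockdown of NFKBIA without irradiation. NFKBIA encodes IκBα, the inhibitor that holds NF-κB in the cytoplasm. Per the methods, inducible knockdown lines in this study were selected with puromycin as clones and switched on with doxycycline. The untreated labels name neither vector nor doxycycline, so that the knockdown and the handling of the line cannot be told apart. None of the 20 libraries is labelled with a scrambled shRNA.

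cGAS binds double-stranded DNA in the cytoplasm and makes the messenger cGAMP, which activates STING on the endoplasmic reticulum. STING recruits the kinase TBK1, which phosphorylates the transcription factor IRF3 and so leads to type I interferon. TREX1 is an exonuclease that removes cytosolic DNA before it is sensed. PYHIN proteins combine a pyrin domain with HIN domains that bind DNA. Among them, AIM2 builds an inflammasome with the adaptor PYCARD and caspase-1, IFI16 acts as a nuclear and cytoplasmic DNA sensor, and PYHIN1 is an interferon-inducible nuclear protein known mainly from lymphocytes. In senescent cells, DNA that leaves the nucleus can engage cGAS and STING.

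PYHIN1, IFI16 and AIM2 lie side by side on chromosome 1 with MNDA, the remaining human PYHIN gene, and their promoters are shown because these 3 genes had higher read counts at 7 days post-IR than in untreated cells. RefSeq promoters (GRCh38.p14, 250 bases before to 50 after an annotated start) were found for 5 of the 7 genes, with 2 starts for IFI16. CGAS and STING1, the current names of MB21D1 and TMEM173, had no entry in the promoter table used here. The windows shown are chr1:158931302-158931601 (plus strand) for PYHIN1, chr1:159009657-159009956 (plus strand) for the downstream start of IFI16 and chr1:159076717-159077016 (minus strand) for AIM2. Capitals mark the runs of at least 12 bases that PYHIN1 and IFI16 have in common, and in AIM2 the matches to 2 motifs given below.
PYHIN1: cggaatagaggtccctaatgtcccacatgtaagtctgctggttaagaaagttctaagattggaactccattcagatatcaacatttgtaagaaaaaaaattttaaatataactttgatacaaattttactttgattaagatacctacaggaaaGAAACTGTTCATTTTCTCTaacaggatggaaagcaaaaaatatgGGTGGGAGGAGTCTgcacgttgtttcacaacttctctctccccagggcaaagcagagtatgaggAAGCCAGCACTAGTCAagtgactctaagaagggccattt
IFI16: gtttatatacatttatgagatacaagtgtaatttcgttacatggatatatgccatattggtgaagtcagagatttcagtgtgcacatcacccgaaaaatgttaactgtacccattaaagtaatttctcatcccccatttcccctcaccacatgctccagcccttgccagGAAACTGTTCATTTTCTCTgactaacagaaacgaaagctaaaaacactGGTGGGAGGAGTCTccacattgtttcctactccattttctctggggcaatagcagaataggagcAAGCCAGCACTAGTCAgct
AIM2: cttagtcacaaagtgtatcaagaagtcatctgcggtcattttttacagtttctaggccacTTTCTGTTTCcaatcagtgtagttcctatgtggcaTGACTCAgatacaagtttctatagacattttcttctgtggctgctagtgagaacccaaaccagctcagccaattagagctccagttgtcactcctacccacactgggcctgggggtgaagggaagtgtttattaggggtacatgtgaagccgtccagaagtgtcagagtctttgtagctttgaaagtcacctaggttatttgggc

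The PYHIN1 and IFI16 windows were identical at 197 of 300 bases (65.7%) in a global alignment. They had 3 exact runs in common, of 19, 14 and 16 bases, in the same order and at similar distances from the start. Each of these runs was found in 2 of the 35116 promoters of the table, these windows themselves. None of the other 14 pairs among the 6 member windows had such a run, and their identity ranged from 53.7% to 60.7%. Motifs were searched on both strands, and no motif overlapped another in the AIM2 window. GAAA followed by GAAA after a gap of 2 bases, the core of the interferon-stimulated response element, was found in AIM2 only (on the minus strand, as TTTCTGTTTC) and in 3.57% of all promoters. TGANTCA, which AP-1 factors bind, was found in AIM2 and TREX1 and in 7.71% of all promoters. GGG followed by CC after a gap of 5 bases, a loose form of the NF-κB element, was found in TREX1 and TBK1 but also in 58.7% of all promoters. TTCNNNGAA, bound by STAT dimers, was found in no member window and in 7.66% of all promoters. TATAAA was found in 11.5% of all promoters and in the IFI16 window shown, on the minus strand (TTTATA at -249 from the start). These matches describe letters and are not binding sites.

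Reads counted on genes numbered 22535659 to 40390961 per library. Levels are given as CPM, the read count relative to the library's total, after scaling by TMM, a method that aligns libraries on the bulk of their genes. NFKBIA fell in all 5 knockdown libraries, from 31.3 ± 7.25 CPM in untreated cells to 12.1 ± 0.667 (SD, n = 5; log2 fold change -1.36 ± 0.11 SE, adjusted p = 4.87e-09 in edgeR). Untreated replicate 5 stood apart from the other untreated libraries (chi-square per degree of freedom 102 to 166, against 11.8 to 76.4 among the others) and had the fewest reads, and values without it are given where it matters. Of the osteoblast markers, RUNX2, COL1A1, SPARC and ALPL were expressed, whereas COL1A2, SP7 and IBSP were below 0.5 CPM on average in every group. Each group was spread over 2 sequencing lanes at most, and no lane held both untreated and 7 days libraries or both untreated and knockdown libraries. The only untreated library in a lane with another group was untreated replicate 5 (lane 3), and the only such knockdown library was replicate 1 (lane 5, with 3 libraries of 7 days). Values with the lane in the model, or within lanes 3 and 5, therefore rest on these single libraries in the untreated and knockdown arms and are no independent correction for the lane.

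Per kilobase of the gene length given in the table, IFI16 was the most abundant member in every group and AIM2 had the lowest mean. AIM2 lay apart from PYHIN1 at 7 days only, and the libraries of both genes overlapped in the other groups. In untreated cells the level was 23.3 ± 3.16 CPM per kb for IFI16, 9.75 ± 0.465 for TBK1, 5.93 ± 1.07 for TREX1, 2.56 ± 0.206 for MB21D1 and 1.84 ± 0.151 for TMEM173 (SD, n = 5). PYHIN1 (0.00709 CPM per kb) and AIM2 (0.00275) were close to the detection limit, and their libraries overlapped. At 7 days post-IR the order of the upper 3 genes was unchanged, but TMEM173 (4.15 ± 0.212 CPM per kb) had passed MB21D1 (2.90 ± 0.144) and overlapped with TREX1 (4.22 ± 0.318), and PYHIN1 had come to 1.01 ± 0.144. The knockdown libraries had TMEM173 (3.34 ± 0.124 CPM per kb) above MB21D1 (2.29 ± 0.185) as well. The 1.5 h libraries kept the untreated order, with MB21D1 at 4.09 ± 0.127 CPM per kb and TMEM173 at 2.14 ± 0.190.

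**Figure D1:**
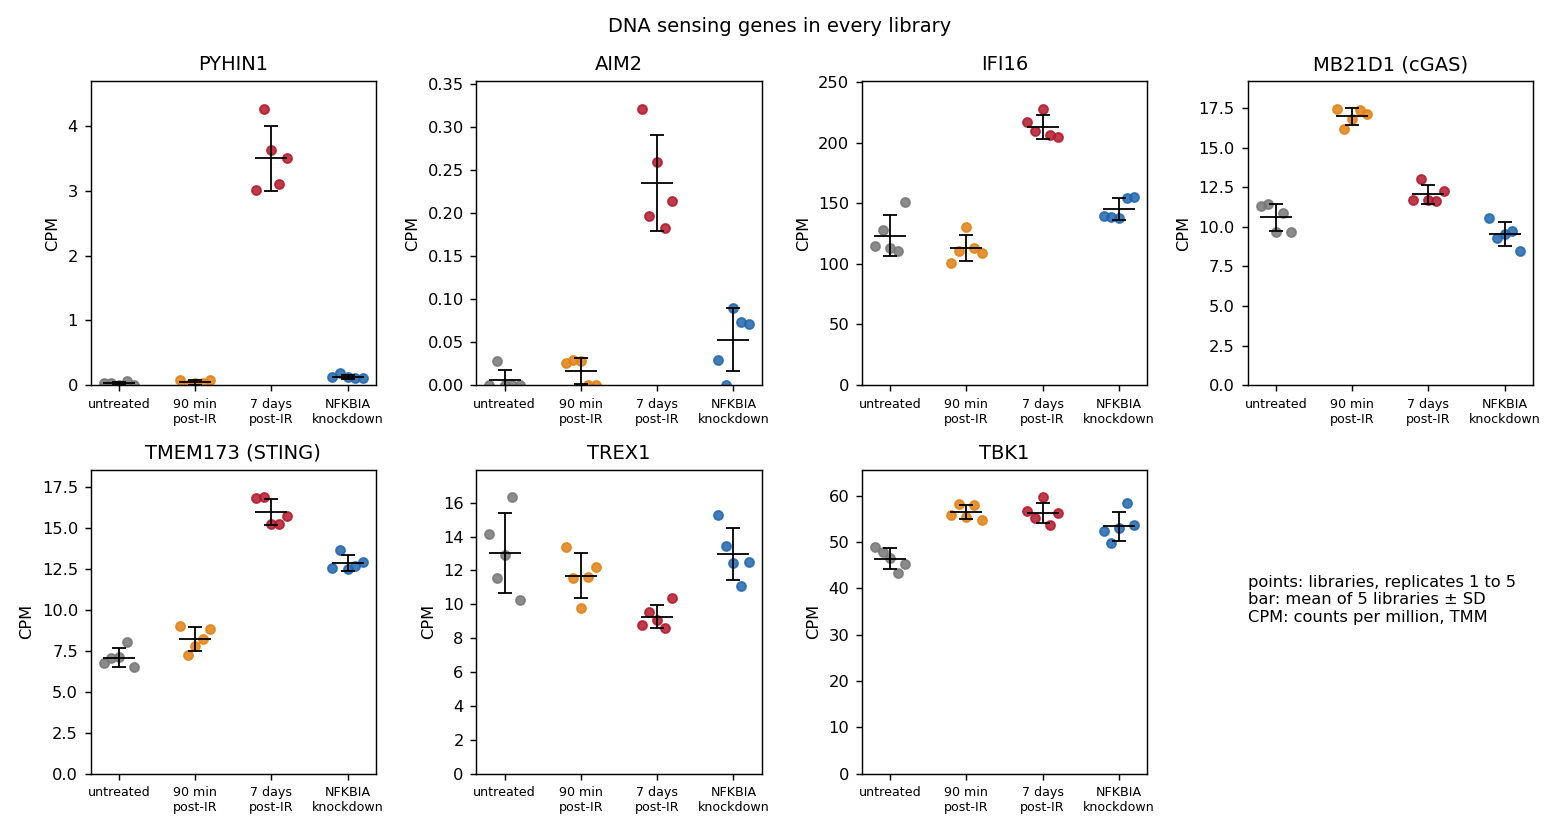
CPM (vertical axis, linear from 0) of the 7 members in each library by group, as points for replicates 1 to 5 with the mean ± SD of 5 libraries. The 7 days libraries sit above all others for PYHIN1, AIM2, IFI16 and TMEM173, and the 1.5 h libraries sit above all others for MB21D1.

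PYHIN1 was nearly silent before irradiation and was clearly transcribed 7 days later. Its raw read counts in the 5 untreated libraries were 1, 1, 0, 2 and 0. At 1.5 h post-IR they were 3, 0, 1, 1 and 3. At 7 days post-IR they were 103, 130, 126, 102 and 98. Every 7 days library thus lay far above every library of the other groups, while the untreated and 1.5 h libraries overlapped. The knockdown libraries had 4, 6, 4, 3 and 3 counts, all above the untreated ones on the CPM scale, but in a range where single reads matter. The summed counts of 559 at 7 days and 4 in untreated cells gave a ratio of 141 per read sequenced (95% exact binomial interval 54.6 to 518, counting error only), and the edgeR log2 fold change was 6.94 ± 0.30 (SE, adjusted p = 3.68e-14). Against 1.5 h post-IR the log2 fold change was 6.18 ± 0.26 (adjusted p = 3.83e-14, edgeR) and within lane 4, which held libraries of both times, 5.87. For the knockdown against untreated, 20 summed counts against 4 gave a ratio of 5.17 (1.73 to 20.8) and a log2 fold change of 2.20 ± 0.59 (adjusted p = 0.00523, edgeR). With the sequencing lane in the model the latter was 4.47 and no longer called (adjusted p = 0.273), and the value for 7 days against untreated was 9.29 (adjusted p = 0.00199), where untreated replicate 5, which carries the untreated level, had 0 counts. Compared with the knockdown, PYHIN1 was higher at 7 days post-IR by a log2 fold change of 4.73 ± 0.23 (adjusted p = 2.57e-13, edgeR), and by 4.80 within lane 5. PYHIN1 passed the filter on low counts only through the 7 days libraries, so that its test was bound to find a difference.

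AIM2 followed the same order of groups at much lower counts. Its counts were 0, 1, 0, 0 and 0 in untreated libraries and 1, 1, 1, 0 and 0 at 1.5 h post-IR. At 7 days they were 11, 6, 9, 6 and 6. All 7 days libraries lay above all other libraries, and the remaining groups overlapped. The knockdown libraries had 1, 0, 3, 2 and 2 counts. AIM2 was left out of the model by the filter, and by exact permutation of its log2 CPM between libraries the 7 days libraries differed from each other group with p = 0.00794, the smallest 5 against 5 libraries can give (two-sided, adjusted p = 0.0132 over 5 comparisons). The ratio of summed counts (38 against 1) to untreated cells was 38.3 with an interval of 6.46 to 1550, so that its size is poorly known. For the knockdown against untreated the exact p was 0.0476 (adjusted p = 0.0595), and for 1.5 h against untreated it was 0.286.

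IFI16, already abundant, rose by less in relative terms. It had 115, 128, 113, 110 and 151 CPM in the untreated libraries. The 1.5 h libraries had 101, 111, 130, 114 and 109 CPM. At 7 days post-IR it had 217, 210, 228, 206 and 205 CPM, above every library of the other groups, whereas the 1.5 h and untreated libraries overlapped. The log2 fold change at 7 days was 0.79 ± 0.08 (adjusted p = 1.84e-08) against untreated, 0.92 ± 0.08 against 1.5 h and 0.55 ± 0.08 against the knockdown (edgeR). The first of these was 0.73 without untreated replicate 4 and 0.85 without untreated replicate 5, the lowest and highest values on leaving out a library, and 0.53 (adjusted p = 0.00784) with the lane in the model, where the untreated level rests on replicate 5, the highest untreated value. It was 0.92 within lane 4 for 7 days against 1.5 h, and 0.60 within lane 5 for 7 days against the knockdown. The knockdown libraries (139, 139, 137, 155 and 156 CPM) overlapped with the untreated ones, with a log2 fold change of 0.23 ± 0.08 (adjusted p = 0.0204) that did not reach the 0.5 required for a call and was -0.076 (adjusted p = 0.796) with the lane in the model.

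MB21D1, which encodes cGAS, had its highest level in the first phase. It had 11.3, 11.5, 9.71, 10.9 and 9.70 CPM in untreated libraries. At 1.5 h post-IR it had 17.5, 16.2, 16.8, 17.4 and 17.2 CPM, above every other library of the series. At 7 days it had 11.7, 13.0, 11.7, 11.6 and 12.2 CPM, just above the untreated range. The log2 fold change at 1.5 h was 0.68 ± 0.06 (adjusted p = 1.19e-07, edgeR), and within lane 3, which held untreated replicate 5 and 3 libraries of 1.5 h, it was 0.79. From 1.5 h to 7 days the log2 fold change was -0.495 ± 0.063 (adjusted p = 7.11e-07), which fell short of the fold threshold by a margin smaller than its error. It passed the threshold under 13 of 20 alternatives, among them DESeq2, RLE scaling and 9 of the 10 fits that left out a library, with values from -0.55 to -0.46 over all 20. At 7 days against untreated the log2 fold change was 0.18 ± 0.06 (adjusted p = 0.0185, not called). The knockdown libraries (8.47 to 10.6 CPM) overlapped with the untreated ones (adjusted p = 0.0617). In GENCODE 29 MB21D1 overlaps DDX43 on the opposite strand, and DDX43 had a log2 fold change of 0.02 ± 0.06 at 1.5 h (adjusted p = 0.871).

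TMEM173, which encodes STING, was called higher than untreated both at 7 days post-IR and in the knockdown, and had counts well above the filter in every library. It had 6.74, 7.08, 7.11, 8.04 and 6.52 CPM in untreated libraries. At 7 days post-IR it had 16.9, 16.9, 15.3, 15.2 and 15.7 CPM. The knockdown libraries had 12.6, 13.7, 12.5, 12.7 and 12.9 CPM. Neither group overlapped with the untreated libraries, and all 7 days libraries lay above all knockdown libraries. The log2 fold change against untreated was 1.17 ± 0.07 at 7 days (adjusted p = 3.78e-12) and 0.86 ± 0.07 in the knockdown (adjusted p = 4.03e-09, edgeR). With the lane in the model, where untreated replicate 5 and knockdown replicate 1 alone link their groups to the others, these were 1.28 and 0.99. The 7 days libraries exceeded the knockdown by 0.31 ± 0.06 on the log2 scale (adjusted p = 0.000317), under the fold threshold. At 1.5 h (7.26 to 9.02 CPM) TMEM173 overlapped with untreated, with a log2 fold change of 0.21 ± 0.07 (adjusted p = 0.0322, not called), and from 1.5 h to 7 days it rose by 0.96 ± 0.07 (adjusted p = 7.68e-11) and within lane 4 also by 0.96.

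TREX1, the exonuclease upstream of cGAS, had its lowest levels at 7 days post-IR. It had 14.1, 11.6, 12.9, 16.3 and 10.2 CPM in untreated libraries, the widest spread of the well measured members in relative terms. At 7 days it had 8.78, 9.56, 9.08, 8.61 and 10.3 CPM, overlapping with untreated replicate 5 only. The log2 fold change was -0.495 ± 0.110 (adjusted p = 0.000538, edgeR), not called by a margin smaller than its error. It was -0.58 without untreated replicate 5, past the threshold. With the lane in the model it was -0.20 (adjusted p = 0.514), a value for which the untreated level rests on replicate 5 alone, the library with the lowest untreated TREX1. Against the knockdown (11.1 to 15.2 CPM) all 7 days libraries were lower, with a log2 fold change of -0.48 ± 0.11 (adjusted p = 0.000786, not called). Within lane 5 it was -0.72, but the only knockdown library there is replicate 1, which had the highest TREX1 of its group (15.2 CPM), and without that library it was -0.44. The 1.5 h libraries had 9.76 to 13.4 CPM (log2 fold change -0.16 ± 0.11, adjusted p = 0.327). TREX1 overlaps ATRIP on the same strand in GENCODE 29, and reads of the shared stretch could be counted for either gene. ATRIP had 13.8 ± 1.56 CPM in untreated cells and 11.5 ± 0.434 at 7 days, a log2 fold change of -0.26 ± 0.07 (adjusted p = 0.00325, not called).

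TBK1, the kinase downstream of STING, differed from untreated in the same direction in all 3 other groups, by small amounts. It had 49.1, 47.9, 46.6, 43.4 and 45.2 CPM in untreated libraries. It had 54.8 to 58.2 CPM at 1.5 h, 53.8 to 59.7 at 7 days and 49.7 to 58.4 in the knockdown. All of these libraries lay above all untreated ones and overlapped with each other. The log2 fold changes of 0.28 ± 0.05 at 1.5 h (adjusted p = 2e-04), 0.28 ± 0.05 at 7 days (adjusted p = 2.84e-05) and 0.20 ± 0.05 in the knockdown (adjusted p = 0.00182, edgeR) were under the fold threshold. Over 19 alternatives the knockdown value ranged from 0.16 to 0.26 and was never called. Its adjusted p was under 0.05 in some of them but not in all. Between 7 days and 1.5 h TBK1 differed by 0.00 ± 0.05 on the log2 scale.

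**Figure D2:**
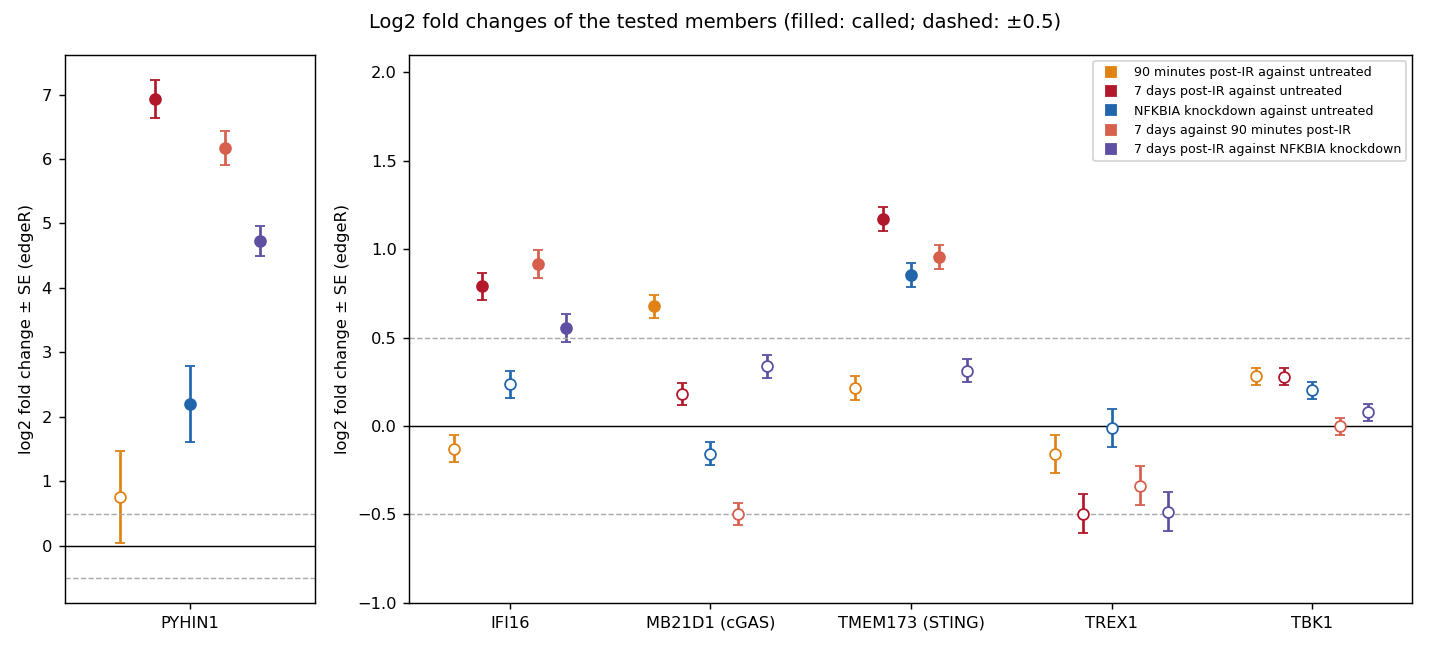
Log2 fold change ± SE (vertical axis) of the 6 tested members in the 5 comparisons, with PYHIN1 on its own axis. Filled points were called, open points were not, and dashed lines mark ±0.5; TREX1 has 2 open points and MB21D1 has 1 at the lower line.

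A gene was called with a log2 fold change over 0.5 in size and an adjusted p under 0.05. At 1.5 h post-IR 1 of the 6 tested members (MB21D1) was called higher than in untreated cells, where 2.08% of the 14992 genes tested were, and none lower, where 1.57% were. At 7 days 3 were called higher and none lower, where 16.7% and 14.4% of all genes were, and the median log2 fold change of the tested members was 0.53 beside 0.01 over all genes. In the knockdown 2 were called higher and none lower, where 5.18% and 7.53% of all genes were. At 7 days against 1.5 h 3 were higher (16.8% of all genes) and none lower (12.6%), and against the knockdown 2 were higher (15.8%) and none lower (9.89%). At an unadjusted p under 0.05 in edgeR, 0, 1, 1, 2 and 1 members were lower in these 5 comparisons in turn, and DESeq2 called 0, 1, 0, 1 and 0 lower, namely TREX1 at 7 days against untreated and MB21D1 at 7 days against 1.5 h. PYHIN1 is among the called members in every count except that for 1.5 h against untreated, and it passed the filter only through the 7 days libraries.

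The libraries of both groups did not overlap for 2 of the 6 tested members at 1.5 h against untreated, where this held for 12.3% of all genes, for 5 at 7 days (44.8%) and for 3 in the knockdown (24.1%). At 7 days they did not overlap with those at 1.5 h for 4 members (61.8% of all genes) and with the knockdown for 5 (60.7%).

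The comparisons with untreated cells use the same 5 untreated libraries, so that their values are given side by side. PYHIN1 had a log2 fold change of 6.94 at 7 days and 2.20 in the knockdown, and TMEM173 of 1.17 and 0.86. IFI16 had 0.79 at 7 days and 0.23 in the knockdown. Over the 20 libraries log2 CPM of PYHIN1 had a Pearson correlation of 0.89 with IFI16 and 0.86 with TMEM173, and of -0.05 with MB21D1. These describe points that share group and lane.

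The genes whose log2 CPM most resembled that of each member over the 20 libraries, which share group and lane, are given next with their Pearson correlation. For PYHIN1 they were ANXA4, ITIH5 and EBI3 (r = 0.99, 0.99 and 0.99). EBI3, a subunit of interleukins 27 and 35, had 4.77 ± 0.260 CPM in untreated cells and 27.8 ± 2.23 at 7 days. For IFI16 they included SEZ6L2 and GAA (r = 0.98 for each). GAA, a lysosomal enzyme, was at 77.0 ± 12.4 CPM in untreated cells and 148 ± 2.71 at 7 days. For MB21D1 they were ATF3, TNFSF9 and IER3 (r = 0.96, 0.95 and 0.94). ATF3, a stress-induced transcription factor, had 17.6 ± 2.37 CPM in untreated cells, 107 ± 4.56 at 1.5 h and 33.8 ± 0.991 at 7 days. For TMEM173 they were CTBS, CD3D and EML2 (r = 0.97 for each), of which CD3D had 1.07 ± 0.183 CPM in untreated cells, 4.86 ± 0.609 at 7 days and 3.48 ± 0.511 in the knockdown. TREX1 was most like PRMT1, CYC1 and PRPF19 (r = 0.93 for each), and TBK1 most like FAM199X, ZNF770 and SOCS4 (r = 0.94, 0.94 and 0.93).

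PYHIN1, AIM2 and MNDA are known mainly from blood cells, and CD3D from T cells, so markers of blood cells were examined. Of 10 such markers, 7 had at most 10 counts in every library. CD3E, the partner of CD3D, had 0 or 1 counts in every 7 days library but 12 counts (0.571 CPM) in untreated replicate 5, where CD2, another T cell marker, had 3, and both had 0 in the other untreated libraries. The summed level of the 10 markers was 1.04 to 2.43 CPM in untreated libraries (2.43 in replicate 5 and at most 1.28 in the others), 0.984 to 1.30 at 1.5 h, 1.73 to 2.43 at 7 days and 0.390 to 0.688 in the knockdown. PTPRC (CD45), the marker of leukocytes in general, had the most counts of the list, with 1.05 ± 0.331 CPM in untreated cells, 0.849 ± 0.133 at 1.5 h, 1.34 ± 0.233 at 7 days and 0.346 ± 0.137 in the knockdown (SD, n = 5). Its 7 days libraries (at most 1.64 CPM) overlapped with the untreated ones (0.824 to 1.62), and its knockdown libraries (0.177 to 0.538) lay below them. CD14 had 17 summed counts in untreated and 61 in 7 days libraries. The part of such cells in the values of the members was not tested. MNDA itself had 3 summed counts in untreated cells, 7 at 1.5 h, 17 at 7 days and 8 in the knockdown.

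The genes next to the PYHIN genes in reference order were mostly silent. Of 11 examined, 9 were too low to be tested, with at most 12 counts in any library. ACKR1, an atypical chemokine receptor, was lower at 7 days post-IR than in untreated cells (log2 fold change -0.81, adjusted p = 0.000104, edgeR). CADM3, next to AIM2, was abundant at 153 CPM in untreated and 136 CPM in 7 days libraries, a log2 fold change of -0.17 (adjusted p = 0.013) that was not called. The olfactory receptor gene OR10J3 had 0 to 2 counts in untreated libraries and 6 to 12 at 7 days.

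**Figure D3:**
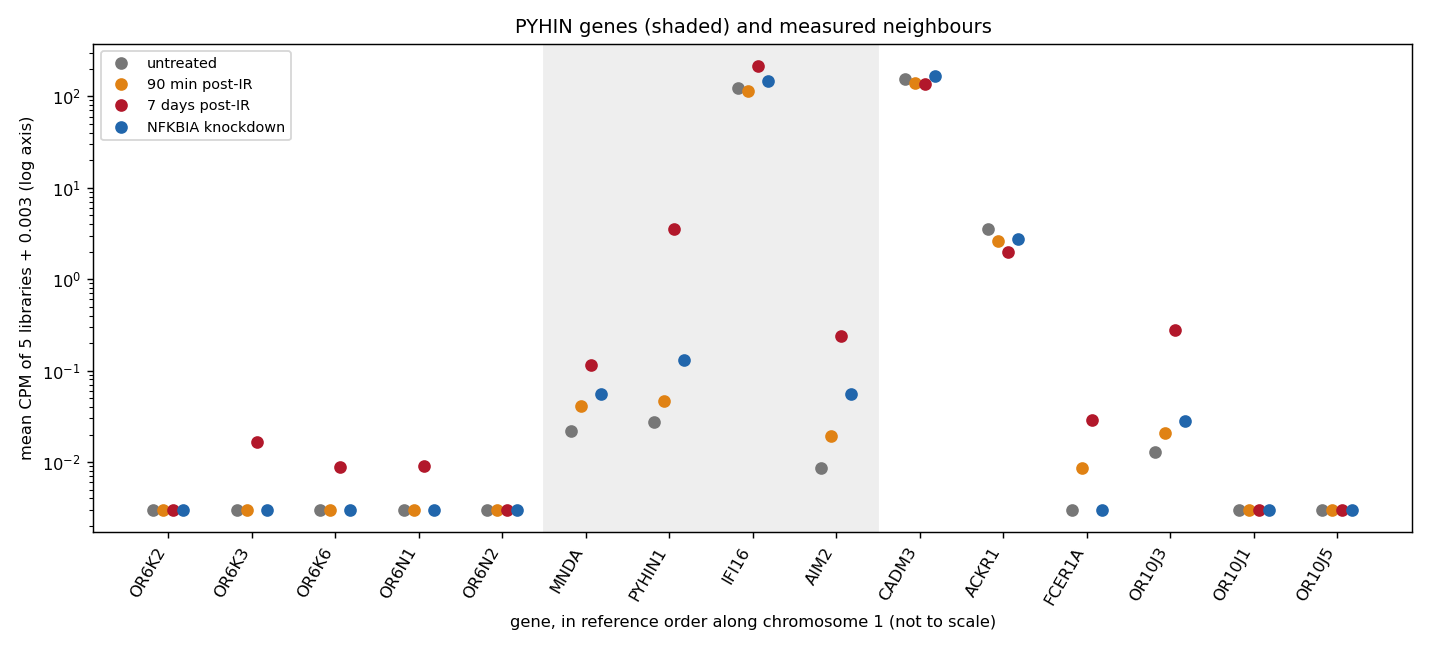
Mean CPM of 5 libraries plus 0.003 (vertical log axis) of the 4 PYHIN genes (shaded) and 11 measured neighbours, in reference order along chromosome 1 and not to scale. Within the shaded genes the 7 days point is the highest for each gene, while outside it is the highest for OR10J3, among others near 0, and the lowest for CADM3 and ACKR1.

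Beyond the members, 83 genes of the pathway were examined in 6 lists, of which 79 were in the table and 70 were tested. At 1.5 h post-IR none was called by edgeR. DESeq2 called none either, and at an unadjusted p under 0.05 in edgeR 8 were higher and 11 lower, by amounts under the fold threshold or with an adjusted p over 0.05. At 7 days post-IR 14 (20%) were called higher and 8 (11.4%) lower against untreated cells, near the 16.7% and 14.4% of all genes tested. In the knockdown 7 (10%) were called higher, beside 5.18% of all genes, and none lower, beside 7.53% (11 lower at an unadjusted p under 0.05, none by DESeq2). The median log2 fold change of the 70 genes at 7 days was 0.08, beside 0.01 over all genes.

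Among the interferon targets, 5 of 9 tested were called higher at 7 days and 1 lower (55.6% and 11.1%, beside 16.7% and 14.4% of all genes). IFIT3 went from 4.61 ± 0.727 to 14.6 ± 1.53 CPM (log2 fold change 1.65, adjusted p = 4.02e-11), OAS1, a sensor of double-stranded RNA, from 0.752 ± 0.256 to 4.04 ± 0.267 CPM (2.47, adjusted p = 1.49e-10), and IFIT2 from 2.45 ± 0.391 to 8.30 ± 0.744 CPM (1.76, adjusted p = 2.24e-10, edgeR). IFIT1, of the same family of antiviral proteins, fell from 17.4 ± 3.10 to 8.79 ± 0.526 CPM (-0.99, adjusted p = 5.58e-09). Thus members of a single family moved in opposite directions. In the knockdown 5 of 9 were called higher (55.6%, beside 5.18% of all genes), led by OASL (1.15, adjusted p = 3.66e-08), IFI44 (1.47, adjusted p = 3.72e-08) and IFIT2 (1.15, adjusted p = 9.87e-07). IFIT1 in the knockdown (16.7 ± 1.14 CPM) was not called. OASL had 6.49 ± 1.43 CPM in untreated cells, 6.63 ± 0.381 at 7 days and 14.5 ± 0.720 in the knockdown, and was lower at 7 days than in the knockdown (-1.13, adjusted p = 1.09e-08). IFNB1, which encodes interferon β, had 0 counts in all 20 libraries. Taken alone, a library with 0 counts allows up to 3 expected counts, and all 20 together allow fewer per library. CXCL10 was too low to be tested, with 7 summed counts in untreated and 60 in 7 days libraries.

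Of 12 tested inflammasome genes 5 were called higher at 7 days (41.7%, beside 16.7% of all genes) and 2 in the knockdown (16.7%, beside 5.18%). Among the 5, IL1B and MEFV passed the filter on low counts only through the 7 days libraries and could only be called higher there. NLRP3, a sensor that like AIM2 recruits PYCARD, went from 8.13 ± 1.12 to 23.0 ± 1.08 CPM (log2 fold change 1.49, adjusted p = 3.51e-12), and CASP1, the protease of the inflammasome, from 0.516 ± 0.135 to 3.68 ± 0.869 CPM (2.81, adjusted p = 1.8e-09, edgeR). IL1B, a substrate of caspase-1, had 2 summed counts in untreated libraries and 86 at 7 days, a ratio of 43.3 with a counting interval of 11.6 to 363. PYCARD, by contrast, had 1 count in all 20 libraries together. In the knockdown CARD16, an inhibitor of caspase-1 (1.38, adjusted p = 4.56e-08), and CASP1 (1.27, adjusted p = 0.000908) were called higher. NLRP3 was at 6.09 ± 0.608 CPM in the knockdown and higher at 7 days than there (1.92, adjusted p = 1.35e-13).

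Genes of DNA clearance and cGAS restraint included 5 called lower at 7 days and 1 higher among 12 tested (41.7% and 8.33%, beside 14.4% and 16.7% of all genes). LMNB1, a lamin of the nuclear envelope, fell from 319 ± 13.1 to 106 ± 3.59 CPM (log2 fold change -1.58, adjusted p = 3.35e-17), and FEN1, a nuclease of DNA replication, from 223 to 148 CPM (-0.60, adjusted p = 2.88e-06, edgeR). DNASE1L1, of the DNase I family, rose from 43.0 to 79.1 CPM (0.88, adjusted p = 1.13e-10). RNASEH2B (-0.68), RNASEH2A (-0.52) and BANF1 (-0.52), which encode subunits of ribonuclease H2 and a DNA-bridging protein that limits cGAS, were also called lower. None of the 12 was called in the knockdown by edgeR, where 2 were higher and 4 lower at an unadjusted p under 0.05.

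In the remaining 3 lists 5 genes were called at 7 days. Of 14 tested nucleic acid receptors, DDX58 (RIG-I), a sensor of viral RNA, was called higher at 7 days (1.20, adjusted p = 1.43e-13), as was POLR3A, a subunit of the polymerase that copies AT-rich DNA into a RIG-I ligand (0.53, adjusted p = 2.14e-07). HMGB1, a chromatin protein that binds DNA, fell from 238 ± 40.6 to 103 ± 2.63 CPM (-1.20, adjusted p = 3.53e-11, edgeR). ZBP1, a sensor of Z-form nucleic acids, was too low to be tested, with 2 summed counts in untreated libraries and 44 at 7 days. Of 18 tested STING adaptors, kinases and regulators 1 was called, RHBDF2, at 0.73 (adjusted p = 4.25e-09). Of 5 genes of cGAMP metabolism and transport 1 was called, ENPP1, the hydrolase of cGAMP, which was lower at 7 days (-0.58, adjusted p = 2.36e-06). None of these 3 lists held a gene that edgeR called in the knockdown, where 8 of their genes were higher and 5 lower at an unadjusted p under 0.05, and DESeq2 called 7 genes over all 6 lists.

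**Figure D4:**
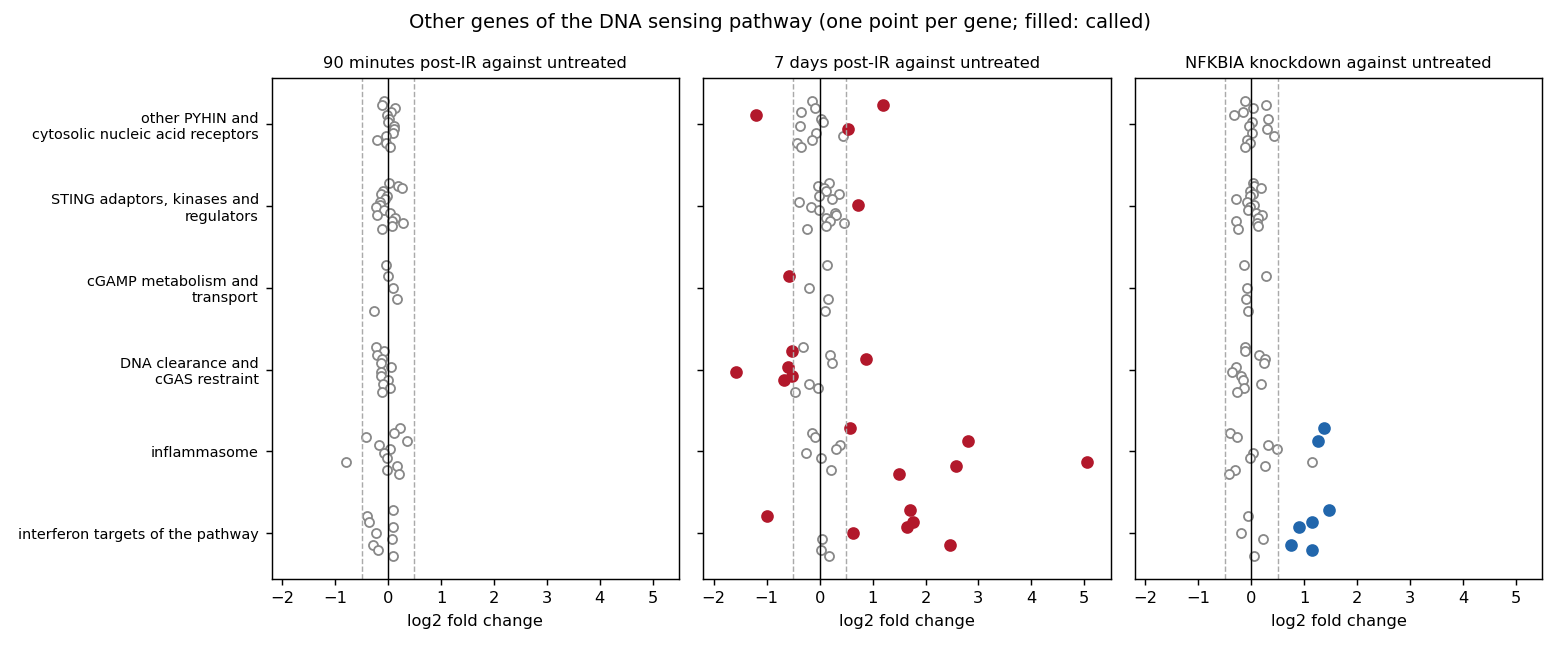
Log2 fold changes (horizontal axis) of the 70 tested pathway genes by list (vertical axis) in the 3 comparisons with untreated cells, as 1 point per gene; filled points were called and dashed lines mark ±0.5. No point is filled at 1.5 h, filled points lie on both sides at 7 days (14 higher, 8 lower), and only on the right in the knockdown (7), in the inflammasome and interferon lists.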

How the data were processed

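RNA-seq libraries of U2-OS cells (20, 5 in each of 4 groups) were made by the authors from 500 ng Trizol-extracted total RNA by a stranded mRNA protocol and sequenced as single reads. The submitters' processing notes list bcl2fastq, Trimmomatic, STAR 2.4.2a and hg19, and the counting tool, annotation and strand setting are not given in the sources used here. The values the authors deposited are raw read counts per gene, without normalization, for 20314 genes (1679 without a symbol). Total counts ranged from 22535659 to 40390961 per library, so that precision is limited mainly for genes of few counts. The table also holds a gene length deposited by the authors, which was used for CPM per kb.

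Samples were grouped by their labels. Genes were filtered with filterByExpr (minimum count 10), which left 14992, and fitted with edgeR 4.0.16 (R 4.3.3; TMM, quasi-likelihood test, all 20 libraries, a term per group), with Benjamini-Hochberg adjustment over all genes tested. A gene was called with an absolute log2 fold change over 0.5 and an adjusted p under 0.05, and SE was computed from the F statistic. AIM2 was compared by exact permutation of log2 CPM (prior count 2). On simulated counts with 200 changed genes the edgeR step was tested before use. Alternatives were DESeq2 1.42.0, other scaling, filters, thresholds and corrections, replicate number or lane as a factor, single lanes, only the groups compared, and leaving out each library. Promoters came from RefSeq (GRCh38.p14), gene overlaps from GENCODE 29, and the order of genes from RefSeq, matched by gene identifiers. Figures were drawn with matplotlib 3.10.9.

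The members and gene lists were chosen with earlier results of these data known. Genes named are the members, NFKBIA, ATRIP, the 3 list genes with the smallest adjusted p among those called or those on which a count turns, the 3 genes most correlated with each member, and the neighbours of the PYHIN genes. DDX43, OR10J3, MNDA, ZBP1, CXCL10, MEFV and the markers PTPRC, CD3E, CD2 and CD14 were named after their values were seen. ZCCHC3, IKBKE, NLRC3 and CCL5 were not matched and are not analysed here. Results of 3 genes are not reported here. The p-values measure the spread between these libraries, which per the methods were replicates in quintuplicate.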

Additional observations from a re-analysis of the deposited data

Results flagged for a closer look

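Of 28 groups of 5 libraries, 2 held a library standing far from the others (Dixon's ratio of gap to range above 0.71). For continuous values chance gives about 1 in 20. For PYHIN1 it was knockdown replicate 2, with 6 counts where the others had 3 or 4 (ratio 0.795). For AIM2 it was untreated replicate 2, with 1 count where the others had 0 (ratio 1). Both rest on single reads, so that this chance rate does not apply to them.

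The effect of irradiation differed between 7 days and 1.5 h by the contrast of both times in edgeR, at an adjusted p under 0.05 and with no fold threshold. On the log2 scale it was larger at 7 days by 0.917 for IFI16 (adjusted p = 2.07e-09) and by 0.956 for TMEM173 (adjusted p = 7.68e-11). For MB21D1 it was smaller at 7 days (-0.495, adjusted p = 7.11e-07). In these cases the direction held in 5 of 5 libraries of each group, which did not overlap. Such a lack of overlap held for 61.8% of all genes tested between these times. For TREX1 the difference was -0.337 (adjusted p = 0.0117), and the libraries overlapped. PYHIN1 differed by 6.18 with no overlap, but it passed the filter on low counts only through the 7 days libraries and could only come out higher there, so that its test gives no support.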

How the results depend on the processing

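Members called against untreated at 7 days numbered 3 and became 5 with DESeq2, 5 without a filter on low counts and 6 without a fold threshold. At 7 days against 1.5 h, 3 became 5, 5 and 5 under the same settings and 1 with a log2 threshold of 1. At 7 days against the knockdown, 2 became 1 with that threshold or with at least 10 counts in every library, and 5 without a fold threshold. At 1.5 h, 1 became 0 with a threshold of 1 and 3 with none. In the knockdown, 2 became 1 with a threshold of 1, at least 10 counts in every library, Bonferroni correction, only the groups compared or the lane as a factor, and 4 without a fold threshold. Leaving out 1 library gave 3 to 4 members at 7 days against untreated or 1.5 h and 2 to 3 against the knockdown, as TREX1 or MB21D1 passed the threshold. The knockdown log2 fold change of PYHIN1 was 4.47 with the lane as a factor (adjusted p = 0.273), and AIM2 in the knockdown was past the threshold in edgeR with no filter (2.45, adjusted p = 0.0406).

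Directions turned for small values only, except for TREX1 in the knockdown, which was -0.01 as reported, 0.51 with the lane as a factor (adjusted p = 0.201), 0.045 with library size alone, 0.013 with upper-quartile factors and -0.094 to 0.060 on leaving out each library. TREX1 at 1.5 h was 0.18 with the lane as a factor and 0.17 within lane 3. In the knockdown the lane as a factor gave IFI16 -0.076 and MB21D1 0.15. TBK1 between 7 days and 1.5 h was 0.0028 with at least 10 counts, 0.019 with library size and 0.030 with upper-quartile factors.

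Pathway genes called at 7 days against untreated (22) became 11 with a threshold of 1 and 47 with none, against 1.5 h (20) 11 and 45, and against the knockdown (20) 7 and 43. At 1.5 h, none became 11 without a fold threshold, 7 with the lane as a factor, 6 within lane 3 and 0 to 1 on leaving out a library (1 without 1.5 h replicate 1 or untreated replicate 2). In the knockdown, 7 became 30 without a fold threshold and 14 with the lane as a factor. Over all genes, 548 called at 1.5 h became 3820 with the lane as a factor, 3700 within lane 3, 256 with Bonferroni correction, 90 with a threshold of 1 and 3191 with none. For the knockdown, 1906 became 4088 with the lane as a factor, 899 with Bonferroni correction, 524 with a threshold of 1 and 6078 with none. At 7 days against untreated, 4657 became 1826 and 9620 with these thresholds, against 1.5 h 4398 became 1626 and 9131, and against the knockdown 3857 became 1531, 8609 and, with Bonferroni correction, 2506. Values with the lane as a factor or within lane 3 rest on single untreated or knockdown libraries. The cause was not tested, beyond what a threshold, filter or fewer libraries do by construction.

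With the replicate number as a block, PYHIN1 at 7 days had a log2 fold change of 6.94 and no member call changed, and same-numbered libraries correlated at -0.25 to 0.12, so that the numbers were not taken to pair them. Depth limits PYHIN1 and AIM2 outside the 7 days libraries, where single reads decide values.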
